A study of Mus musculus with 8 samples.

Results

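Pancreatic islet cells store their hormones in dense-core granules, and release follows when calcium rises and a granule fuses with the plasma membrane. Fusion is driven by a SNARE complex made of a granule protein and membrane proteins, calcium is sensed by synaptotagmins, complexin acts on the assembled SNAREs, and Rab GTPases with their effectors bring granules to the membrane and hold them there. The data described here concern 9 genes of this machinery: the SNAREs Snap25, Stx1a and Vamp2, the calcium sensor Syt7, the complexin Cplx2, the GTPases Rab3a and Rab27a, and the Rab effectors Sytl4 (granuphilin) and Rph3al (Noc2). They were chosen by name, and all 9 are among the 24421 genes counted in each of the 8 samples. Transcripts of 8 of the 9 were found in control sample 1, and of all 9 in each of the other 7 samples. In all, the 9 genes gave 7864 unique molecular identifiers (UMIs, 1 per captured transcript) in the cells kept.

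Islets came from male C57BL/6J mice, 8 weeks of age. The 4 PPTx samples were taken 2 days after partial pancreatectomy, in which 50% of the pancreas on the splenic side is excised. The 4 control samples came from mice that had no operation. The resection, the surgery itself and the part of the pancreas left to sample therefore cannot be told apart. Each sample pooled islets of 1 to 3 mice, so p-values describe the spread between such pools. After filtering, 1232 of 1240 cells remained (520 control, 712 PPTx), with sample totals from 236645 to 1580152 UMIs and sample medians from 3328 to 8677 UMIs per cell, and 1 barcode occurred in more than 1 sample.

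Cells were sorted by the hormone that led their transcripts. A cell was called insulin-led, Gcg-led, Sst-led or Ppy-led when that hormone had at least 2 times the UMIs of the next of these 4 hormones. This gave 953 insulin-led cells (beta-cell hormone), 114 Gcg-led cells (alpha-cell hormone), 130 Ppy-led cells (PP-cell hormone), 13 Sst-led cells (delta-cell hormone) and 22 cells with no clear leader. The labels fit other markers in part. All 8 beta-cell markers were highest in insulin-led cells, although the defining factor Mafa gave only 2 UMIs there. Of 7 alpha-cell markers, 6 were highest in Gcg-led cells. Of 4 PP-cell markers, 3 were highest in Ppy-led cells, and Aqp3 was at 0 in every class. Ghrl, the ghrelin-cell hormone, was not used to sort and gave 4598 UMIs among insulin-led cells. Gcg-led cells made up 15.9% ± 8.42 (SD, n = 4) of control samples and 2.85% ± 1.89 (SD, n = 4) of PPTx samples, and Ppy-led cells 6.0% ± 2.76 and 13.6% ± 2.31, so that class and group were unevenly crossed. Sums of at least 10 cells, the minimum for a test, were had for insulin-led cells in all 8 samples, for Ppy-led cells in control 4 and the 4 PPTx samples, for Gcg-led cells in controls 2, 3 and 4, and for Sst-led cells in none.

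Levels are given as a gene's UMIs per 1000000 non-hormone UMIs, since hormone transcripts took 63.5% of all UMIs in insulin-led cells and 48.5% in Gcg-led cells. The libraries count transcript ends, so a level serves to compare samples and cell classes for 1 gene and not 1 gene with another. Here a gene was called when its adjusted p in edgeR's quasi-likelihood test on summed counts was under 0.05, with adjustment over all genes tested. The fits on the 3 cell classes carried a term for the sample, and 8 of the 9 genes passed the filter on low counts in them. Stx1a did not pass in any comparison.

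The clearest difference lay in the Rab effector Sytl4, the gene of granuphilin, which binds Rab27a and syntaxin at docked granules. Insulin-led cells held 1234 Sytl4 UMIs, Gcg-led cells 5, Ppy-led cells 7 and Sst-led cells 1. In insulin-led cells the level was 685, 594, 519 and 575 in controls 1 to 4, and 363, 590, 524 and 470 in PPTx samples 1 to 4. In Gcg-led cells it was 0, 32.8 and 19.4 in controls 2, 3 and 4. In Ppy-led cells it was 0 in control 4 and in PPTx samples 1, 3 and 4, and 75.2 in PPTx sample 2. Every Gcg-led and Ppy-led sum thus lay below every insulin-led sum. The share of all genes with such a gap between classes was not counted. The log2 fold change was -4.20 (SE 0.44, edgeR adjusted p = 2.37e-14) in Gcg-led against insulin-led cells, lower in 3 of 3 samples, and -4.15 (SE 0.37, edgeR adjusted p = 1.66e-18) in Ppy-led cells, lower in 5 of 5 samples. Without control 3, which held 4 of the 5 Gcg-led UMIs, the first value was -5.19, still called. Without PPTx sample 2, which held all 7 Ppy-led UMIs, every Ppy-led sum was 0, so that a fold is not given, and Sytl4 was still called. At the same threshold, 26.6% of the 3091 genes tested were called between Gcg-led and insulin-led cells and 30% between Ppy-led and insulin-led cells. These calls fell from 821 to 442 without control 3 in Gcg-led cells, and from 926 to 137 in the control samples alone in Ppy-led cells.

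How much of the remaining Sytl4 signal outside insulin-led cells came from those cells themselves was not tested, but free RNA can be set beside it. Pooled over samples, the Sytl4 level in Gcg-led cells was 3.76% of that in insulin-led cells (95% interval 1.22 to 8.80, exact and for counting error only), and in Ppy-led cells 4.68% (1.88 to 9.66). The beta-cell glucose transporter Slc2a2 stood at 4.67% and 2.96%, the beta-cell phosphatase subunit G6pc2 at 3.43% and 4.34%, and the beta-cell peptide Ucn3 at 1.37% and 1.22%. The insulin transcript Ins2 stood at 1.08% and 1.59%. The other beta-cell markers with enough UMIs stood higher, Ero1lb at 8.08% and 7.17%, Nkx6-1 at 5.63% and 29.0%, and the zinc transporter Slc30a8 at 86.7% and 14.1%. The Sytl4 intervals hold the values of Slc2a2, G6pc2 and Ero1lb in both classes. In Gcg-led cells the interval also holds Nkx6-1 and Ucn3 and lies above Ins2, and in Ppy-led cells it lies above both Ucn3 and Ins2. With each cell thinned to 2000 UMIs, a Sytl4 UMI was seen in 31.5% of insulin-led cells (59.7% unthinned), in 2.63% of Gcg-led cells (3.51% unthinned) and in 1.54% of Ppy-led cells (3.85% unthinned). Ucn3, which alpha and PP cells should lack, was seen in 1.75% and 1.54% of those cells after thinning. These shares rest on 3 and 2 cells with a Sytl4 UMI and 2 and 2 cells with a Ucn3 UMI, and their intervals overlap. Median depths were 6061 UMIs in insulin-led, 3962.5 in Gcg-led and 5206 in Ppy-led cells. The 7 Ppy-led UMIs lay in 5 cells of PPTx sample 2, whose median insulin count was 95 UMIs against 50.5 in all Ppy-led cells. In the 4 Gcg-led cells with Sytl4 it was 27 against 32 in that class, and in the Sst-led cell 12 against 22.

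**Figure D1:**
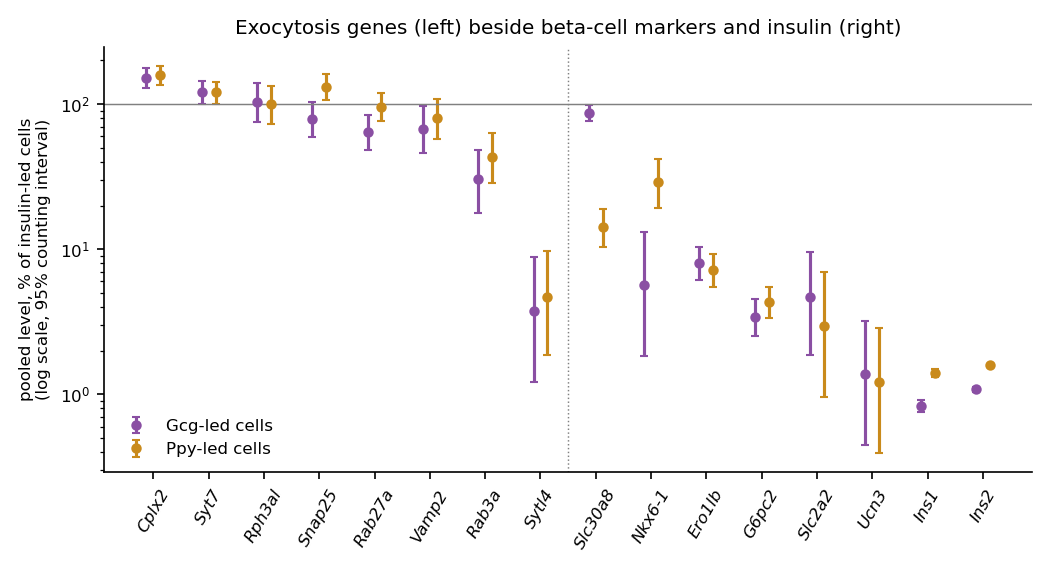
Pooled level of 8 exocytosis genes, 6 beta-cell markers and both insulin genes in Gcg-led (purple) and Ppy-led (orange) cells as a percent of the level in insulin-led cells, on a log axis, with 95% counting intervals. By point value, Sytl4 at 3.76% and 4.68% stands near Slc2a2 and G6pc2, above Ucn3 and both insulin genes, and below Ero1lb, Nkx6-1 and Slc30a8. Rab3a is intermediate at 30.3% and 43.3%, and Cplx2 lies above 100 at 151% and 158%. The pools mix control and PPTx samples unevenly.

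Rab3a, a small GTPase of secretory granules, was the other gene of the set called lower in both Gcg-led and Ppy-led cells. Its level was 196, 175, 254 and 240 in the insulin-led cells of controls 1 to 4, and 289, 233, 219 and 232 in those of PPTx samples 1 to 4. In Gcg-led cells it was 51.9, 65.5 and 77.6 in controls 2 to 4, from only 13 UMIs, and none of these reached the insulin-led range. In Ppy-led cells it was 62.7 in control 4 and 135, 64.5, 144 and 229 in PPTx samples 1 to 4, from 25 UMIs, so that only PPTx sample 4 came within the insulin-led range. The log2 fold change was -1.65 (SE 0.40, edgeR adjusted p = 6.49e-04) in Gcg-led cells, lower in 3 of 3 samples, and -1.19 (SE 0.30, edgeR adjusted p = 8.65e-04) in Ppy-led cells, lower in 5 of 5 samples. Without control 3, which held 52 of the Gcg-led cells, the Gcg-led value was -1.52 and no longer called (edgeR adjusted p = 0.0895). The Ppy-led call was lost with cells thinned to 2000 UMIs (-0.97, edgeR adjusted p = 0.132) and in the control samples alone (-2.07, edgeR adjusted p = 0.274).

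Cplx2, which encodes a complexin that binds assembled SNARE complexes, went the other way. In insulin-led cells its level ran from 367 to 664 with a median of 546 over the 8 samples. In Gcg-led cells it was 622, 868 and 854 in controls 2 to 4, 1 of them within the insulin-led range. In Ppy-led cells it was 877 in control 4 and 579, 774, 890 and 1433 in PPTx samples 1 to 4, higher than the insulin-led cells of the same sample in 5 of 5. All but control 4 were PPTx samples, where insulin-led cells averaged 442 against 621 in control samples. The Ppy-led cells of controls 1 to 3, in sums of 2, 9 and 8 cells, were at 456, 517 and 996. Insulin-led cells of those samples were at 559, 651 and 610. The log2 fold change in Ppy-led cells was 0.83 (SE 0.16, edgeR adjusted p = 1.19e-05), and it was 0.26 with no call in the control samples alone, where a single Ppy-led sum was left. Without the filter on low counts it was 0.53 and not called either (edgeR adjusted p = 0.0643). In Gcg-led cells it was 0.56 (SE 0.20, edgeR adjusted p = 0.0235), with 2 of 3 sums above the insulin-led cells of their sample. It failed to pass in 7 of 18 alternatives. Among these were DESeq2 (0.52, DESeq2 adjusted p = 0.149), library sizes without hormones, the scale of the levels (0.41, edgeR adjusted p = 0.114), the fits without control 3 (0.39, edgeR adjusted p = 0.397) and without control 4 (0.46, edgeR adjusted p = 0.234), and the fit on control samples alone (0.37, edgeR adjusted p = 0.275). The 13 Sst-led cells gave 21 Cplx2 UMIs, a pooled level of 933 (exact Poisson interval 577 to 1426, for counting error only), with no test.

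The genes called between cell classes are shown by the RefSeq promoter sequence (assembly GRCm38.p6, 250 bases before to 50 bases after an annotated start). Promoters were held for 6 of the 9 genes. Sytl4 lies on chromosome X from 133936385 to 133981821, Rab3a on chromosome 8 from 70754703 to 70758608, and Cplx2 on chromosome 13 from 54301964 to 54383923. On chromosome 13, 2 annotated genes (LOC115488208 and Gm52068) overlap Cplx2, and whether they share its reads was not tested. The windows are chrX:133981763-133982062 on the minus strand for Sytl4, chr8:70754453-70754752 on the plus strand for the first of 2 Rab3a starts, and chr13:54302306-54302605 on the plus strand for Cplx2. Capitals mark 3 short motifs searched on both strands: TAAT, the core that homeodomain factors bind, CANNTG, the E-box, and TGACG, the core of a cAMP response element.
Sytl4: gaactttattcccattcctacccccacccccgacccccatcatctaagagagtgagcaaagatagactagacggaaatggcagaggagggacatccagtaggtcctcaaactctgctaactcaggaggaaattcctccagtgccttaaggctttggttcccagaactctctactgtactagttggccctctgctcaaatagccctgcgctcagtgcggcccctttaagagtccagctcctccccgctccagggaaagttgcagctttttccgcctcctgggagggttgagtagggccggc
Rab3a: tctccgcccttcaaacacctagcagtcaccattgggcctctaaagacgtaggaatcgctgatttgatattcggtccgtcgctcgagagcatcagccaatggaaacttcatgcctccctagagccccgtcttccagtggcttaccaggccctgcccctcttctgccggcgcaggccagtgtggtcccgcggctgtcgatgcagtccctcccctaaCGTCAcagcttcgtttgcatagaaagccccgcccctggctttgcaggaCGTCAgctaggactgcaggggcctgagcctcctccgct
Cplx2: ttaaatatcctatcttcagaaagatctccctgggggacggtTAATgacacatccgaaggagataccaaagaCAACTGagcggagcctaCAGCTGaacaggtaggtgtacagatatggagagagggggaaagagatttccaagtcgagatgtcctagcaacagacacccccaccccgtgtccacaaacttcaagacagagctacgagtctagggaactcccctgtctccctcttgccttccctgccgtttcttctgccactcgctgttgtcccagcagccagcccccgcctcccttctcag
The Sytl4 window holds none of these letters, the Rab3a window holds TGACG at 2 places, and the Cplx2 window holds TAAT at 1 place and CANNTG at 2, with no overlap between motifs. Of all 32851 promoters of this length, 58.0% hold TAAT, 72.3% CANNTG and 20.8% TGACG, so each motif is common.

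The other SNARE genes and the calcium sensor were not called between classes. Snap25, the membrane SNARE that joins with syntaxin, had a level of 207, 278 and 233 in Gcg-led cells of controls 2 to 4, within the insulin-led range of 140 to 367 and lower than the insulin-led cells of the same sample in 3 of 3. Its log2 fold change was -0.17 (95% interval -0.72 to 0.38) in Gcg-led and 0.41 (0.00 to 0.82) in Ppy-led cells, where 4 of 5 samples were higher and PPTx sample 4 was lower with 2 UMIs. Vamp2, the granule SNARE, was at 51.9, 164 and 77.6 in Gcg-led cells against 125 to 293 in insulin-led cells, also lower within 3 of 3 samples, with a log2 fold change of -0.71 (-1.43 to 0.00, edgeR adjusted p = 0.139). In Ppy-led cells Vamp2 ran from 57.3 to 337, a log2 fold change of -0.30 (-0.88 to 0.27). Syt7, a synaptotagmin with high calcium affinity, ran from 475 to 622 in Gcg-led, 419 to 802 in Ppy-led and 318 to 607 in insulin-led cells, and the classes overlapped. In Gcg-led cells Syt7 was higher in 1 and lower in 2 of 3 samples. Its log2 fold change there was 0.22 (-0.21 to 0.65), and 0.08 without control 2. It was called with total UMIs as library size (0.70, edgeR adjusted p = 0.00928). It was higher in Ppy-led than in insulin-led cells in 5 of 5 samples, with a log2 fold change of 0.31 (-0.03 to 0.66, edgeR adjusted p = 0.176). Stx1a, the syntaxin partner of Snap25, was too sparse to test, with 15 UMIs in 953 insulin-led, 2 in 114 Gcg-led, 1 in 13 Sst-led and 7 in 130 Ppy-led cells. Its pooled level in Ppy-led cells was 385% of that in insulin-led cells, with an exact interval from 133 to 1002 that covers counting error only.

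Among the other Rab genes, Rab27a, the granule GTPase that recruits granuphilin, had levels of 363, 188 and 175 in the Gcg-led cells of controls 2 to 4 and 293 to 432 in insulin-led cells. Control 2 was within the insulin-led range and the other 2 sums were below it, and each was lower than the insulin-led cells of its own sample (3 of 3). The log2 fold change was -0.63 (95% interval -1.17 to -0.08), which was not called (edgeR adjusted p = 0.0802). With library sizes that leave out hormones, the scale of the levels, Rab27a was at -0.78 in Gcg-led cells and called (edgeR adjusted p = 0.0234). In Ppy-led cells its log2 fold change was 0.01 (-0.39 to 0.41). Rph3al, a Rab effector of dense-core granules, ran from 156 to 233 in Gcg-led, 116 to 401 in Ppy-led and 151 to 350 in insulin-led cells. Its log2 fold change was 0.19 (-0.42 to 0.80) in Gcg-led and -0.02 (-0.55 to 0.52) in Ppy-led cells. These intervals do not show that the classes were alike. Over the 8 genes tested, 1 was higher and 2 were lower in each class (all genes, 12% and 14.6% in Gcg-led, 14.6% and 15.4% in Ppy-led cells), and the median log2 fold change was -0.40 in Gcg-led and 0.00 in Ppy-led cells, beside medians over all genes tested of -0.02 and 0.00.

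By level pooled over samples, the classes ordered differently for different genes. The pools mix groups unevenly, since 95 of 114 Gcg-led cells came from control samples and 98 of 130 Ppy-led and 578 of 953 insulin-led cells from PPTx samples. Sytl4 ran from insulin-led (530) down to Sst-led (44.4), Ppy-led (24.8) and Gcg-led (19.96), and the last 3 did not differ beyond their counting intervals. Rab3a ran from insulin-led (237) to Sst-led (133), Ppy-led (103) and Gcg-led (71.8), where the Sst-led value rests on 3 UMIs and overlaps every other class and the Ppy-led and Gcg-led intervals overlap. Cplx2 ran from Sst-led (933) to Ppy-led (801), Gcg-led (766) and insulin-led (508), with the first 3 overlapping. Between Ppy-led and Gcg-led cells, 0 of the 8 genes were called in edgeR and 0 had an unadjusted p under 0.05, where 3.46% of all genes were called, 13.5% had such a p, and DESeq2 also called 0 of the 8. The 107 genes called became 47 without control 3, 61 without control 4 and 271 with total UMIs as library size. That comparison rests on control 4 alone for samples that held both classes.

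**Figure D2:**
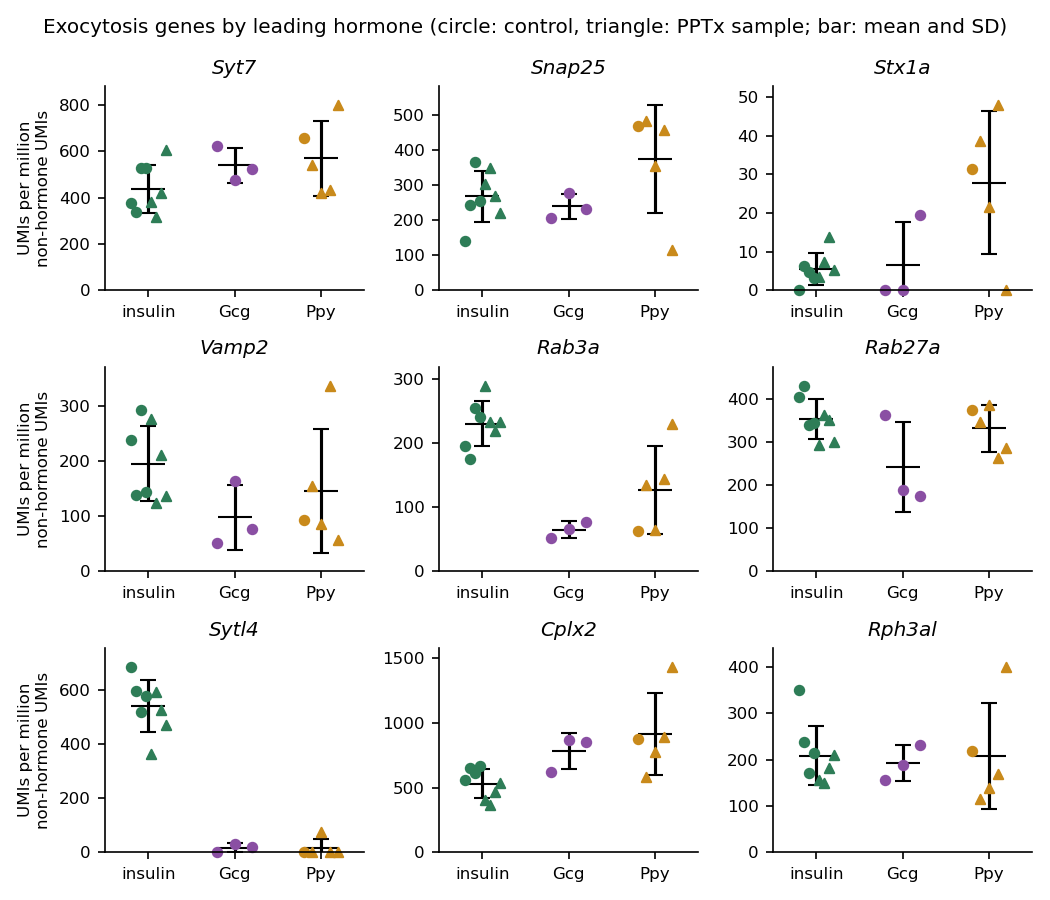
Level of each of the 9 genes, in UMIs per 1000000 non-hormone UMIs, in insulin-led, Gcg-led and Ppy-led cells. Each point is 1 sample with at least 10 such cells (circles control, triangles PPTx), bars are the mean and SD over 8, 3 and 5 samples, Sytl4 falls to at most 75.2 outside insulin-led cells, and Cplx2 reaches 1433 in Ppy-led cells.

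Further genes of the same machinery, listed by role, were counted beside the 26.6% and 30% of all genes called in Gcg-led and Ppy-led cells, and the shares called in the lists are not read as particular to them. Of 25 SNARE proteins and partners, 10 could be tested, and in Gcg-led cells 0 were higher and 1 was lower, while in Ppy-led cells 1 was higher and 2 were lower. Napa, the alpha-SNAP that works with NSF to take SNARE complexes apart, was lower in Ppy-led cells at log2 -1.17 (SE 0.23, edgeR adjusted p = 1.31e-05), and Stxbp6 (amisyn), a syntaxin-binding protein, was higher there at log2 1.34 (SE 0.38, edgeR adjusted p = 0.00333). Stxbp6 gave 7 UMIs in Gcg-led and 42 in Ppy-led cells, and it also differed between these classes (log2 3.22, SE 0.84, edgeR adjusted p = 0.00993).

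Of 21 calcium sensors and priming factors, 8 could be tested. In Gcg-led cells 0 were higher and 3 were lower, and in Ppy-led cells 1 was higher and 2 were lower. The 3 called in Gcg-led cells became 2 with DESeq2 and 4 without the filter on low counts. Pclo, the active-zone scaffold Piccolo, was lower in both classes, at log2 -1.99 (SE 0.48) in Gcg-led and -0.98 (SE 0.35) in Ppy-led cells. All Gcg-led cells held 9 Pclo UMIs and all Ppy-led cells 22, including cells in sums too small to test. Syt4, a synaptotagmin that binds calcium poorly, was lower at log2 -1.23 (SE 0.32) and -0.73 (SE 0.24). Syt13, another synaptotagmin, was lower in Gcg-led cells at log2 -1.25 (SE 0.20, edgeR adjusted p = 1.15e-07) and higher in Ppy-led than in Gcg-led cells at log2 1.08 (SE 0.24). Rims2, a Rab3 effector that primes granules, was higher in Ppy-led cells at log2 1.31 (SE 0.40), and all Ppy-led cells held 32 Rims2 UMIs.

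Of 20 Rab GTPases and effectors, 10 could be tested, with 1 higher and 1 lower in Gcg-led cells and 1 higher and 2 lower in Ppy-led cells. Rab3d, a paralog of Rab3a, was lower in both, at log2 -1.90 (SE 0.31, edgeR adjusted p = 2.58e-07) in Gcg-led and -1.36 (SE 0.23, edgeR adjusted p = 6.58e-07) in Ppy-led cells. Its UMIs numbered 1160 in insulin-led, 32 in Gcg-led and 51 in Ppy-led cells. Sytl5, a paralog of Sytl4, was higher in Gcg-led cells at log2 1.73 (SE 0.62, edgeR adjusted p = 0.0281). All Gcg-led cells, including those in sums too small to test, held 26 Sytl5 UMIs and insulin-led cells 56. The 2 Rab genes called in Gcg-led cells became 1 with DESeq2 and 4 without the filter on low counts. Madd, an exchange factor for Rab3, was lower in Ppy-led cells at log2 -0.82 (SE 0.33).

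The second question of the design was whether the genes moved after PPTx. In insulin-led cells 17 of 5911 genes tested were called in edgeR (0.288%), and 0 of the 8 genes tested here were among them. The 17 calls fell to 1 without control 1, 2 without control 2, 10 without control 4 and 1 without PPTx sample 1. At an unadjusted p under 0.05 it was 1 of the 8, beside 9.44% of all genes, and DESeq2 called 0 of the 8 also. The gene past the unadjusted threshold was Cplx2. Its level was 559, 651, 610 and 664 in controls 1 to 4, and 401, 367, 466 and 533 in PPTx samples 1 to 4. The groups did not overlap, and the highest PPTx sample stood just under the lowest control. Control samples averaged 621 ± 47.0 (SD, n = 4) and those taken after PPTx 442 ± 73.5 (SD, n = 4), a ratio of 0.711 (two-sided exact permutation p = 0.0286, the smallest that 4 against 4 can give). Groups of 4 samples did not overlap in level for 5.9% of all genes, and with PPTx lower for 3.15%. The fitted log2 fold change was -0.49 (SE 0.16, 95% interval -0.82 to -0.16), which did not pass after adjustment (edgeR adjusted p = 0.271, and from 0.163 to 0.659 over 18 alternatives, all negative).

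Other measures of the same insulin-led cells were set beside Cplx2. The summed level of the 7 alpha-cell markers in insulin-led cells was 4048 to 4923 in control and 4685 to 6110 in PPTx samples, and that of the 4 PP-cell markers 392 to 2244 and 2482 to 6980, with Aqp3 at 0. Median depth was alike in range, 3468 to 10378 UMIs in control and 3660 to 9566 in PPTx samples, and insulin took 58.5% to 63.0% and 51.0% to 60.1% of their UMIs. Markers of stellate cells summed to 0 to 62.4 in control and 2.77 to 659 in PPTx samples, those of acinar cells to 6.26 to 42.0 and 19.4 to 338, those of ductal cells to 6.26 to 164 and 27.7 to 356, and those of immune cells to 0 to 88.8 and 0 to 307. The part of these in the Cplx2 difference was not tested.

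The Rab effector Rph3al had levels of 350, 238, 170 and 214 in controls 1 to 4 and 157, 151, 183 and 211 in PPTx samples 1 to 4, a ratio of 0.722. The groups overlapped and control 1 stood highest (two-sided exact permutation p = 0.114). The fitted log2 fold change was -0.35 (95% interval -0.79 to 0.09). Sytl4 had a ratio of 0.820 (exact permutation p = 0.171), with PPTx sample 2 above control 3 and control 4. Its log2 fold change was -0.23 (-0.58 to 0.12). Rab27a had a ratio of 0.859 (exact permutation p = 0.171) and a log2 fold change of -0.16 (-0.50 to 0.18).

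The other genes that could be tested lay closer to equal means. Rab3a had a ratio of 1.125 with a log2 fold change of 0.14 (95% interval -0.24 to 0.53), Snap25 a ratio of 1.13 and 0.12 (-0.31 to 0.55), Syt7 a ratio of 0.972 and -0.08 (-0.50 to 0.33), and Vamp2 a ratio of 0.920 and -0.12 (-0.66 to 0.43). Their exact permutation p-values ran from 0.314 to 0.943. Levels of Snap25 were 140 to 367 in control and 222 to 348 in PPTx samples, those of Syt7 338 to 529 and 318 to 607, and those of Vamp2 138 to 293 and 125 to 275, so the groups overlapped for each. Stx1a, too sparse for the fit, gave 4 UMIs in control and 11 in PPTx insulin-led cells, with mean levels of 3.59 and 7.52, a ratio of 2.097 (two-sided exact permutation p = 0.2). The median log2 fold change over the 8 genes was -0.14 beside -0.01 over all genes tested. None of the tested genes of the 3 longer lists was called (0 of 17, 0 of 11 and 0 of 12 in edgeR, with 1, 2 and 2 at an unadjusted p under 0.05, and 0 in DESeq2).

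**Figure D3:**
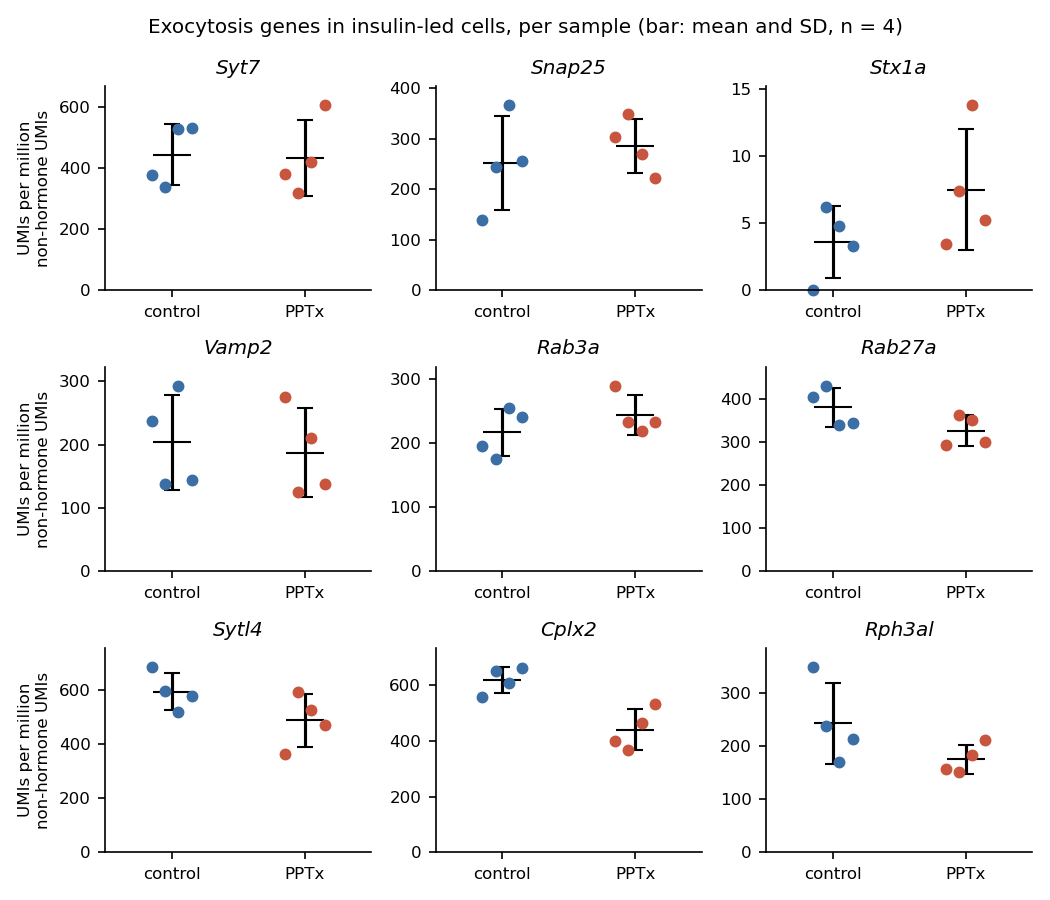
Level of the 9 genes in the insulin-led cells of each control (blue) and PPTx (red) sample, in UMIs per 1000000 non-hormone UMIs on axes that start at 0, with mean and SD over 4 samples. The groups are apart for Cplx2, at 559 to 664 against 367 to 533, and overlap for the other 8 genes.

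In Ppy-led cells too few control sums reached 10 cells, so sums of at least 5 cells were used (controls 2, 3 and 4, and PPTx samples 1 to 4), a choice made after seeing the data. Of 638 genes tested, 0 were called in edgeR (0%) and 0 in DESeq2, and 39 (6.11%) had an unadjusted p under 0.05. Of the 9 genes 4 could be tested, with 0 at that level. Cplx2 was at 517, 996 and 877 in these controls and at 579, 774, 890 and 1433 in PPTx samples, overlapping groups with a log2 fold change of 0.12 (95% interval -0.55 to 0.78). For Syt7 it was -0.23 (-0.85 to 0.40), for Snap25 -0.01 (-0.79 to 0.77) and for Rab27a 0.11 (-0.66 to 0.89). The difference between the PPTx effect in Ppy-led and in insulin-led cells was 0.72 for Cplx2 (SE 0.29, edgeR adjusted p = 0.812), and 0 of the 8 genes were called, beside 1 of 4402 genes (0.0227%). Of the 8, 2 had an unadjusted p under 0.05, as did 5.75% of all genes, namely Cplx2 and Sytl4. For Sytl4 the control Ppy-led sums were all 0, so that the size of its difference is not given (edgeR adjusted p = 0.812). Gcg-led cells numbered 19 in all PPTx samples and Sst-led cells 3, too few to compare. In the Gcg-led cells Cplx2 gave levels of 484, 317, 622 and 623 in PPTx samples 1 to 4, from sums of 1 to 7 cells.

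PPTx is a model used to study replicating beta cells, so replicating cells were set beside the others. Insulin-led cells with at least 2 UMIs of 10 replication markers were called replicating, and the comparison used the 3 samples with at least 5 of them, PPTx 1, 2 and 3 (28 replicating and 413 other cells, with a term for the sample). Of 3888 genes tested 121 were called in edgeR (3.11%; 62 without PPTx sample 3), and 0 of the 8 genes tested here in edgeR, 0 in DESeq2 and 0 at an unadjusted p under 0.05, which 13% of all genes had. Fitted values were below 0 for 7 of the 8, with a median log2 fold change of -0.56 beside -0.08 over all genes. These fits rest on PPTx samples 1 to 3, and in the samples left out the genes went both ways. Syt7, for example, was at 735 against 520 in control 3 (4 replicating cells, 12 UMIs) and at 0 against 344 in control 2 (1 replicating cell). Rph3al was at 0, 98.1 and 129 in replicating and 169, 155 and 188 in other cells of PPTx samples 1 to 3, from 8 UMIs in all replicating cells, a log2 fold change of -0.999 (95% interval -2.16 to 0.16, edgeR adjusted p = 0.484). Sytl4 was at 346, 466 and 418 against 364, 600 and 534, lower in 3 of 3 samples, with -0.31 (-0.87 to 0.25). Rab3a was at 198, 123 and 193 against 296, 242 and 222, also lower in 3 of 3, with -0.62 (-1.47 to 0.23). Cplx2 was at 544, 172 and 257 against 390, 383 and 486, higher in PPTx sample 1 and lower in the other 2, with -0.56 (-1.27 to 0.16). In every sample left out, each with fewer than 5 replicating cells, Cplx2 was higher in the replicating cells. Controls 1 to 4 had 1627, 682, 735 and 957 against 541, 650, 605 and 654, and PPTx sample 4 had 1770 against 503. The replicating values of controls 1 to 4 rest on 1, 1, 4 and 4 cells with 2, 2, 12 and 9 UMIs. That of PPTx sample 4 rests on 3 cells with 8 UMIs. Snap25 was at 296, 368 and 321 against 304, 346 and 264, with 0.10 (-0.57 to 0.77). The log2 fold change was -0.77 (-1.84 to 0.31) for Vamp2, -0.57 (-1.32 to 0.18) for Rab27a and -0.18 (-0.88 to 0.51) for Syt7, and Stx1a gave 1 UMI in replicating cells.

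From the longer lists, 2 genes were lower in replicating cells. Syt4 had a log2 fold change of -1.69 (SE 0.44, edgeR adjusted p = 0.0394) and Rab3d -1.58 (SE 0.35, edgeR adjusted p = 0.0122), against 0.386% of all genes called lower, and DESeq2 called neither. Both were also lower in Gcg-led and Ppy-led cells. They were 1 of 7 calcium sensors and priming factors tested and 1 of 10 Rab GTPases and effectors, and 0 of 13 SNARE genes was called.

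**Figure D4:**
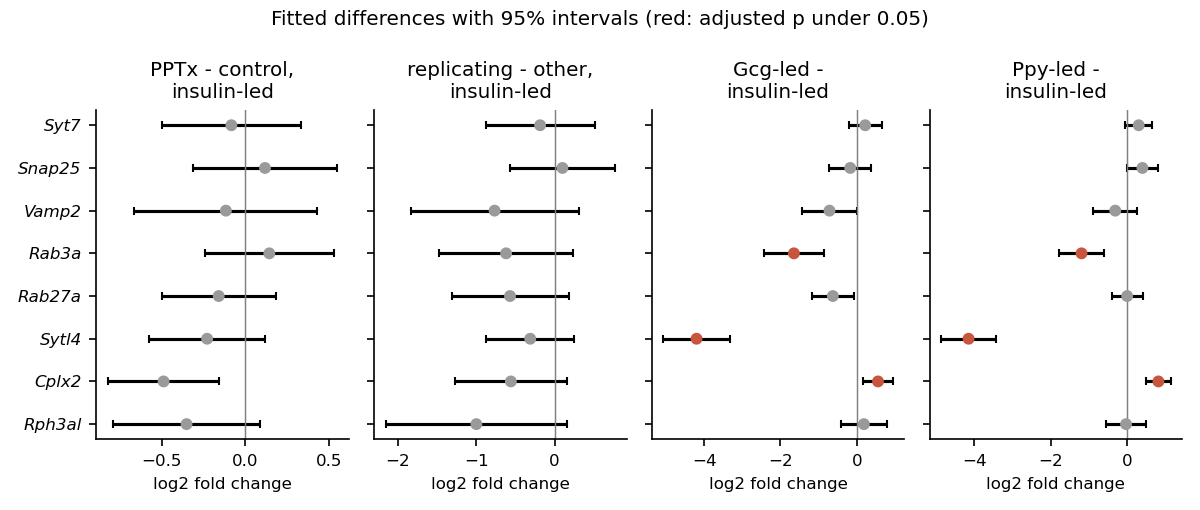
Fitted log2 fold changes with 95% intervals for the 8 genes that could be tested, in 4 comparisons, each with its own horizontal scale (red, edgeR adjusted p under 0.05). Sytl4, Rab3a and Cplx2 are red in the comparisons of cell classes, and no gene is red for PPTx or for replicating cells.

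Genes whose pattern most resembled 3 of the set, taken as those with the most UMIs overall (Sytl4, Cplx2 and Syt7), were found by Pearson's r of log2 levels over the 16 sums of sample and class, among 4437 genes. These r values describe points that share libraries and cell classes. For Sytl4 they were Hapln4 (0.98), Ucn3 (0.97) and Spock2 (0.97). For Cplx2 they were Pitpnm2 (0.90), Gprin1 (0.86) and Kdm6b (0.86), and for Syt7 Zbtb7a (0.87), Rpl14-ps1 (0.82) and Reep3 (0.81).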

How the data were processed

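Single-cell RNA-seq was measured in 8 samples of dispersed islets. Per the labels, droplets were made on a ddSEQ isolator and reads were processed with bcl2fastq and mm10, and the study's methods name Cell Ranger. The labels name a Chromium 3′ kit and the methods a ddSEQ kit, which was not settled. The authors deposited raw UMI counts per gene and cell, 1 file per sample. How cells were selected before deposit, doublet treatment and strand use in counting are not given in the sources used here. No doublet caller was run.

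Following the limits in the methods, cells outside 100 to 3000 detected genes or 100 to 20000 UMIs were dropped, and the rest were classed by leading hormone. Raw counts were summed per sample and class (at least 10 cells) and tested with edgeR 4.0.16 (quasi-likelihood, TMM, filterByExpr, Benjamini-Hochberg adjustment) in R 4.3.3, with DESeq2 1.42.0 as an alternative. An SE is the absolute log2 fold change divided by the square root of F. Scripts were tested on simulated data. Levels exclude Ins1, Ins2, Gcg, Sst, Ppy, Pyy, Ghrl and Iapp from the total. Exact permutation tests used scipy 1.17.1. Alternatives changed the tool, filter, scaling, class limits (1.5 and 4 times), depth (2000 UMIs), replication limits (1 and 3 UMIs) and samples. The rule named the 9 genes and, of each list, the called genes with the largest change, at most 4 per comparison, except that some are not reported here. Members and lists were chosen with earlier results of these data known.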

Additional observations from a re-analysis of the deposited data

How the results depend on the processing

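Counts of the 9 exocytosis genes called after PPTx in insulin-led cells, in Ppy-led cells, in their difference and in replicating cells stayed at 0 under all alternatives run. The counts that moved lie in the comparisons of cell classes. Of these genes higher in Gcg-led cells, 1 became 0 with DESeq2, without the filter on low counts, with library sizes that leave out hormones, with thinned cells and in control samples alone, and 2 with total UMIs as library size (Syt7 at 0.70), which moved the median of all genes from -0.02 to 0.45 and the share of higher calls from 45.2% to 78.2%. Leaving out 1 sample at a time gave 0 to 1, with 0 without control 3 and without control 4. Of genes lower in Gcg-led cells, 2 became 1 without control 3 (1 to 2 over all samples left out) and 3 with library sizes that leave out hormones, where Rab27a was called (-0.78). In Ppy-led cells the genes higher went from 1 (Cplx2) to 0 without the filter and in control samples alone, and to 2 with sums of at least 5 cells (chosen after seeing the data), where Syt7 was called, and the genes lower went from 2 to 1 with thinned cells and in control samples alone, where Rab3a had -0.97 and -2.07. Sytl4 was called in each of these class comparisons under every alternative, from -5.19 to -3.73 in Gcg-led and -5.26 to -3.88 in Ppy-led cells, leaving aside the fits without PPTx 2 and on control samples alone, where every Ppy-led sum was 0 and the fitted size is no bound. Among the lists, Rab genes called in Gcg-led cells went from 2 to 1 with DESeq2 and 4 without the filter. Calcium sensors called there went from 3 to 2 with DESeq2 and 4 without the filter. Between Ppy-led and Gcg-led cells, calcium sensors called went from 1 to 0 without the filter. In replicating cells, calcium sensors went from 1 to 0 with DESeq2, and Rab genes from 1 to 0 with DESeq2 and 2 without the filter. The cause was not tested. Library sizes without hormones, the scale of the levels, moved the median of all genes to -0.20 in Gcg-led cells (31.4% of calls higher) and from 0.04 to 0.22 between Ppy-led and Gcg-led cells (43.0% to 66.9%), where total UMIs gave -0.41 (8.86%). The directions of Sytl4, Rab3a and Cplx2 against insulin-led cells held in all of these. Over all genes, calls after PPTx in insulin-led cells went from 17 (58.8% higher) to 27 with DESeq2 (74.1% higher), 28 with total UMIs (85.7% higher, median 0.12), 90 without the filter, 9 with thinned cells, where fewer genes were tested, and 1 to 17 with 1 sample left out.

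Whether the replicate numbers pair the samples was not settled. Same-numbered deviations correlated at 0.055, 0.036, 0.098 and 0.152, and 7 of 8 samples correlated best with their own number. With the replicate number as a block, 33 genes were called in insulin-led cells and 3 in Ppy-led cells, beside 17 and 0 without it. In either, 0 of the members were called. Sparse counts limit Stx1a, and the Gcg-led and Sst-led cells after PPTx.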
